A study of Mus musculus with 12 samples.

Results

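The response described here is that of wild-type RAW264.7 cells, a mouse macrophage line, to lipopolysaccharide (LPS), the cell wall component of Gram-negative bacteria. It was read from 4 of the 12 RNA sequencing libraries of a study that also examined knockouts of Ing4 and of Socs1. The members were chosen by their labels alone: 2 libraries of wild-type cells given LPS at 100 ng/ml for 3 h, against 2 libraries of untreated wild-type cells. All genes of the count table were taken, and 12070 of the 54232 listed passed a filter on low counts. Both groups are the same established line without any introduced allele. The treatment text in the labels names HEK293T cells, while every sample is labelled as the macrophage line, and the genes measured are mouse genes. Whether paired libraries stem from separate cultures is not stated in the labels, so the p-values below measure the spread between libraries, which may be technical.

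Macrophages recognise LPS through Toll-like receptor 4, whose signals activate NF-kB, MAP kinases and interferon regulatory factors. Secreted type I interferon then acts back on the cells and induces a second set of genes with interferon response elements in their promoters. Cytokines are the best known outcome. The same signals also lower many transcripts, including genes of the resting macrophage and of the dividing cell, and the account here dwells on those falls and on gene families other than cytokines.

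The wild-type libraries held 20216586 to 23097654 counts, so that 3 counts, used below as the limit that a count of 0 allows, equal 0.13 to 0.148 CPM (counts scaled to a common library size). Of 16 macrophage markers 15 reached 1 CPM in some library and Marco was at 0, with summed levels of 15400 to 17000 CPM after LPS and 14900 to 16600 CPM untreated. All 10 markers of T, B and NK cells were under 1 CPM in every library, and so were all 10 of fibroblasts, epithelium and endothelium and 8 of 9 of neutrophils and mast cells. Log2 CPM correlated at 0.9818 across tested genes within the LPS pair and at 0.9858 within the untreated pair, against 0.9092 to 0.9297 between the groups. The defining markers of the labelled cell type were thus present.

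LPS raised and lowered similar numbers of genes, and the rises ran much farther than the falls. Of the 12070 genes tested, 2197 (18.2%) were called at an adjusted p of 0.05 by the quasi-likelihood test of edgeR after Benjamini-Hochberg adjustment, the source of every adjusted p below unless another is named. The calls were 1177 rises (9.75%) and 1020 falls (8.45%). Among the rises 459 (39%) reached 4-fold and 109 reached 32-fold, whereas among the falls 112 (11%) reached 4-fold and 2 reached 32-fold. The median size was 1.48 on the log2 scale for rises (quartiles 0.88 and 2.97) and 1.04 for falls (0.77 and 1.51). Both libraries of a group lay above both of the other in 62.1% of tested genes, 30.2% higher after LPS and 31.9% lower, and in every called gene. Genes that rose took 24.4% and 27.7% of all counts in the LPS libraries, against 9.9% and 9.74% in the untreated ones. Genes that fell took 3% and 2.75% after LPS, against 7.16% and 7.07% untreated. In bulk libraries a lower level can mean fewer cells with the transcript or less of it in each cell, and these cannot be told apart.

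**Figure D1:**
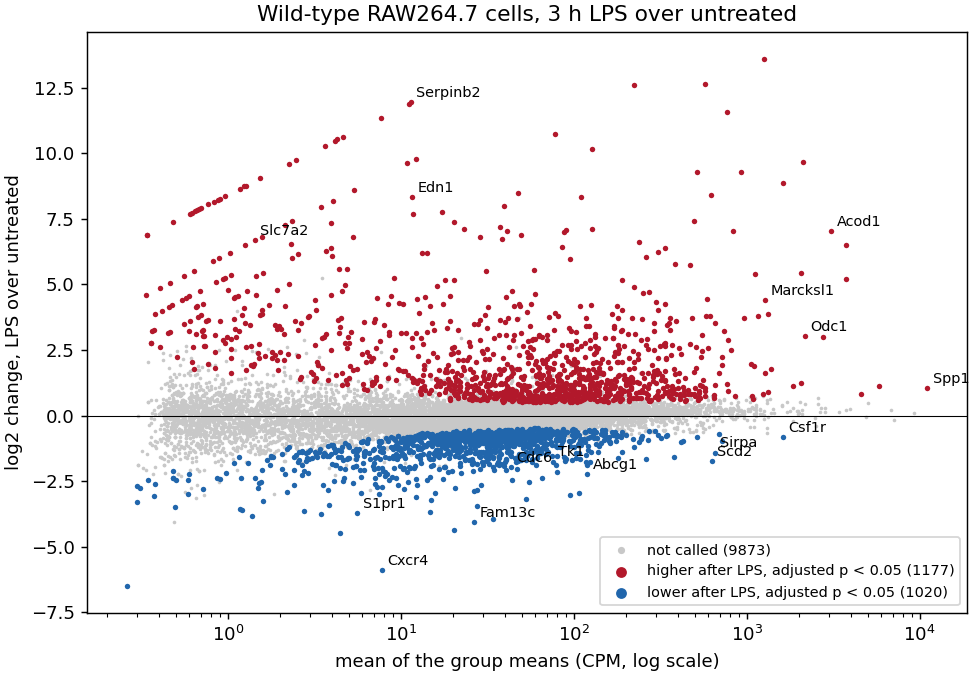
Mean level of each tested gene (mean of the 2 group means, CPM, log scale) against its log2 change, LPS over untreated, in wild-type cells; each point is a gene. The 1177 rises spread up to a log2 change of 13.6, while nearly all of the 1020 falls lie between the axis and the region around Cxcr4 at -5.88.

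The number of calls leaned on the untreated libraries and on the spread assumed. There were 2100 and 1860 calls without LPS library 1 or 2, against 1043 and 1027 without untreated library 1 or 2. A fit over all 12 libraries, which takes in an LPS library of the Socs1 knockout that stands apart from its pair, called 369 of 12771 genes (2.89%). The same fit without that library called 1920 of 13262 (14.5%), 7.79% higher and 6.69% lower. Of the 1177 rises 239 were also called over 12 libraries and 931 over 11; of the 1020 falls 128 and 786 were. No called gene changed sign in either fit. With upper-quartile scaling, which shifted the median of all genes by -0.11, the split became 1031 rises and 1390 falls (42.6% higher, against 53.6%), so small changes near the threshold depend on the scaling.

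The largest falls included 3 receptors that guide cell movement. Among falls with a mean of at least 2 CPM untreated, Cxcr4, the receptor for the chemokine CXCL12, fell the most: 0.314 and 0.197 CPM after LPS, against 24.3 and 6.4 CPM untreated (log2 change -5.88, SE 0.859, adjusted p 0.01). The 2 untreated libraries differed widely from each other in Cxcr4, yet both stood far above the LPS libraries. Gpr183, a receptor for oxysterols that guides immune cells, had 14 and 7.48 CPM after LPS, against 111 and 80.7 CPM untreated (adjusted p 0.0042). S1pr1, the receptor for sphingosine 1-phosphate, had 0.681 and 0.886 CPM after LPS, against 12.1 and 8.69 CPM untreated (adjusted p 0.0028). Cytip, which in lymphocytes and dendritic cells binds cytohesin and lowers adhesion, had 0.105 and 0.246 CPM after LPS, against 1.64 and 2.69 CPM untreated. In all 4 genes both LPS libraries lay below both untreated ones, which the choice of named genes required.

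Other large falls came from genes of varied roles. Trp53inp1, a p53 target of stress responses, had 0.367 and 0.591 CPM after LPS, against 4.28 and 8.61 CPM untreated (log2 change -3.73). Fbxo32, the muscle atrophy ubiquitin ligase subunit known as atrogin-1, had 0.157 and 0.197 CPM after LPS, against 1.69 and 2.78 CPM untreated. Lpin1, a phosphatidate phosphatase of lipid synthesis, had 3.09 and 2.07 CPM after LPS, against 16.4 and 27.6 CPM untreated. Hpgd, the enzyme that inactivates prostaglandins, had 0.681 and 0.0984 CPM after LPS, against 14.6 and 2.47 CPM untreated, and its adjusted p was 0.048. In Hpgd the first library of each group was several-fold above the second, and its groups separated by little more than their own spread. Ranbp3l showed the same pattern, with 3.62 and 0.689 CPM after LPS against 43.6 and 10.8 CPM untreated (adjusted p 0.048).

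Among the 20 largest falls the smallest standard error was that of Fam13c, a gene of little known function: 3.2 and 2.76 CPM after LPS, against 55.2 and 44.9 CPM untreated (log2 change -4.07, SE 0.202, adjusted p 0.00091). Klhl6, a ubiquitin ligase adaptor known from B cells, had 5.87 and 2.46 CPM after LPS, against 76.7 and 51.9 CPM untreated. Its relative Klhl24 had 3.67 and 2.17 CPM after LPS, against 25.3 and 29 CPM untreated. Lhfpl2, a membrane protein, had 26.6 and 14.9 CPM after LPS, against 170 and 168 CPM untreated. Vash2, Tmem86a, Abhd15, Cd28, Klf11 and Rnf144b were also among the 20 largest falls, with log2 changes between -3.81 and -2.96. Of the 20 genes 17 were also called over 11 libraries and 3 over 12.

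**Figure D2:**
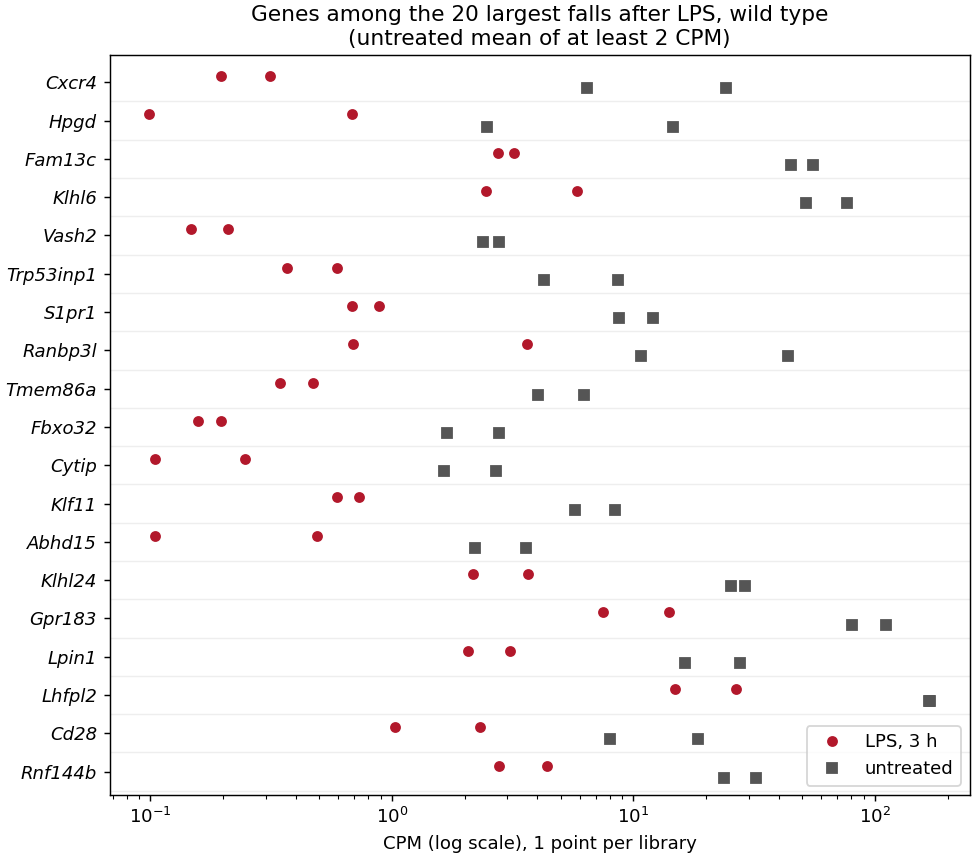
Level in every wild-type library (CPM, log scale) of genes among the 20 that fell the most with an untreated mean of at least 2 CPM, ordered from Cxcr4 (log2 change -5.88) to Rnf144b (-2.96); red circles are the 2 LPS libraries and grey squares the 2 untreated ones. The 2 groups do not overlap for any gene shown, which the choice of genes required. The gap within a group is widest, as a ratio, for Hpgd, Ranbp3l and Abhd15.

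By amount of RNA rather than by fold, counted in CPM without scaling to gene length, the largest losses included surface receptors and a lipid enzyme. Sirpa, the inhibitory receptor that reads CD47 on other cells, had 367 and 342 CPM after LPS, against 872 and 1030 CPM untreated (log2 change -1.42, adjusted p 0.0055). Csf1r, the receptor for macrophage colony-stimulating factor, had 1260 and 1080 CPM after LPS, against 2120 and 2020 CPM untreated (adjusted p 0.028). The groups did not overlap in either gene, which the choice of named genes required. The call of Csf1r was lost without LPS library 2 (adjusted p 0.1) and without either untreated library (0.13 and 0.11). Plxnb2, a semaphorin receptor, had 238 and 338 CPM after LPS, against 519 and 607 CPM untreated. Scd2, a stearoyl-CoA desaturase that makes unsaturated fatty acids, had 257 and 326 CPM after LPS, against 773 and 1170 CPM untreated (adjusted p 0.01). The call of Scd2 was lost over 11 and 12 libraries (adjusted p 0.14 and 0.2). Rasgrp3, an exchange factor for Ras and Rap, had 233 and 148 CPM after LPS, against 689 and 452 CPM untreated. The other 3 of the 8 largest losses were Apobec1, Slc6a6 and Mki67, with log2 changes of -1.02, -0.7 and -0.83. Of the 8 genes 4 were also called over 11 libraries and 1 over 12.

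Single members of the ABC transporter and nuclear receptor families changed in both directions. Abcg1, the ABC transporter that passes cholesterol to lipoproteins, had 29.1 and 54.7 CPM after LPS, against 167 and 229 CPM untreated (log2 change -2.24, SE 0.335, adjusted p 0.011), a call that was lost over 11 and 12 libraries (adjusted p 0.059 and 0.1). Abcd2, a peroxisomal fatty acid importer, fell by 1.76 on the log2 scale. Abcc1, an exporter of leukotriene and glutathione conjugates, rose, with 426 and 444 CPM after LPS against 219 and 251 CPM untreated. Of 27 ABC transporters tested, 1 rose (3.7%, against 9.75% of all tested genes) and 5 fell (18.5%, against 8.45%). There were 0 calls over 12 libraries and 1 rise and 3 falls over 11. Rxra, the shared partner of lipid-sensing nuclear receptors, had 15 and 14.1 CPM after LPS, against 44.1 and 40.5 CPM untreated (adjusted p 0.0032, against 0.056 over 11 libraries and 0.093 over 12). Among 21 nuclear receptors 5 fell (23.8%), Nr2c2 and Nr2f6 included, and 2 rose (9.52%, near the share of all tested genes). The rises were Nr1d1, a repressor of the clock, and Nr4a3, an immediate early gene, at 2.36 and 1.33 CPM after LPS against 0.0865 and 0 CPM untreated. The raw ratio of Nr4a3 counts was 41.8, with an exact 95% interval of 11.2 to 352 from counting error alone.

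Single sphingolipid enzymes went both ways. Of 29 tested, 5 rose and 3 fell, 17.2% and 10.3%, against 9.75% and 8.45% of all tested genes. Cerk, the ceramide kinase, had 43.7 and 43.2 CPM after LPS, against 129 and 146 CPM untreated (adjusted p 0.0024). Kdsr, an enzyme of the first steps of ceramide synthesis, and Sgpp1, a sphingosine 1-phosphate phosphatase, fell by 1.65 and 1.2 on the log2 scale. Cers6, a ceramide synthase, had 220 and 225 CPM after LPS, against 121 and 89.3 CPM untreated. Degs1, the desaturase that completes ceramide, rose by 0.92 on the log2 scale (SE 0.167).

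Many genes of DNA replication fell. Of 52 tested genes of replication licensing and forks, 25 fell (48.1%, against 8.45% of all tested genes) and 1, Orc4, rose. The median log2 change was -0.63 over the 52 genes, with 48 below 0, against a median of 0 over all tested genes. Cdc6, which loads the MCM helicase on origins, had 19.3 and 16 CPM after LPS, against 76.6 and 61.8 CPM untreated (log2 change -1.97, SE 0.181, adjusted p 0.0029). Gins3, a subunit of the active helicase, had 14.8 and 16.2 CPM after LPS, against 62.2 and 53.8 CPM untreated (log2 change -1.9). Tk1, the thymidine kinase of S phase, had 34.8 and 34.5 CPM after LPS, against 116 and 118 CPM untreated. Gmnn, which blocks a second loading of origins, had 25.2 and 27.3 CPM after LPS, against 98.3 and 79.2 CPM untreated. Of the helicase subunits Mcm2 to Mcm7, the falls of Mcm2, Mcm6 and Mcm7 passed the test (-0.96, -0.87 and -0.79), while Mcm3, Mcm4 and Mcm5 had -0.62, -0.56 and -0.78 without passing.

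Mitotic and repair genes also fell. Of 52 spindle and checkpoint genes 19 fell (36.5%, against 8.45% of all tested genes) and 0 rose, with a median of -0.59 and 50 of 52 below 0. Aurkb, the kinase of the chromosomal passenger complex, had 66.6 and 58.8 CPM after LPS, against 113 and 106 CPM untreated (adjusted p 0.015). Plk1, the main mitotic polo kinase, had 49.7 and 42.5 CPM after LPS, against 87.5 and 80.2 CPM untreated. Of 38 homologous recombination and Fanconi genes 13 fell (34.2%) and 0 rose. Brca1, which directs recombination repair, had 29.4 and 25.4 CPM after LPS, against 96.1 and 78.8 CPM untreated (log2 change -1.67, SE 0.165). Chek2, a checkpoint kinase, fell by 1.69 on the log2 scale and Brip1, the helicase partner of Brca1, by 1.25. Of 19 E2F, RB and MYB factors 8 fell (42.1%) and 0 rose. E2f2, an activator of S phase genes, had 6.76 and 6.59 CPM after LPS, against 51.5 and 45 CPM untreated (log2 change -2.85, adjusted p 0.0011).

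Cyclins and their inhibitors split. Ccne1, the cyclin of S phase entry, had 27.4 and 19.5 CPM after LPS, against 86.8 and 63.4 CPM untreated (adjusted p 0.009). Cdkn1a, the inhibitor p21, had 656 and 847 CPM after LPS, against 211 and 265 CPM untreated (log2 change 1.66, SE 0.208). Ccnf and Cdk19 fell by 1.23 and 1.1 on the log2 scale, and Cdk6 and Ccnl1 rose by 1.39 and 1.03. Over 46 tested members 5 rose (10.9%) and 7 fell (15.2%), against 9.75% and 8.45% of all tested genes.

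The size of these counts depended on the libraries. Falls of replication genes numbered 21 and 12 without LPS library 1 or 2 and 6 and 13 without untreated library 1 or 2, with 3 over 12 libraries and 25 over 11. Mitotic falls numbered 25, 7, 1 and 9 in the same order of omissions, with 1 over 12 libraries and 23 over 11. Falls of recombination genes numbered 12, 10, 4 and 10 in that order, with 3 over 12 libraries and 15 over 11. The list medians were -0.62, -0.58 and -0.64 over 12 libraries, where the wild-type changes come from the same wild-type libraries as before. In a separate fit of the 4 Ing4 knockout libraries, which the fits over 12 and 11 libraries also hold and the fit of the wild-type libraries does not, 20 replication, 12 mitotic and 13 recombination genes fell and 0 rose, and the wild-type calls of these lists had the same sign there in 26 of 26, 19 of 19 and 13 of 13 genes.

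**Figure D3:**
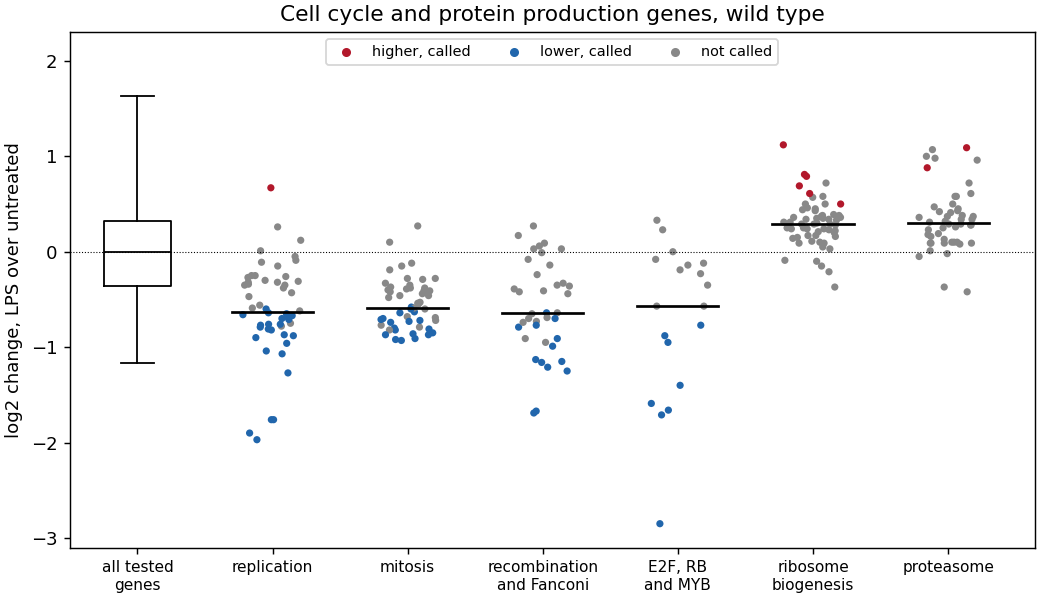
Log2 change, LPS over untreated, of each tested member of 6 gene lists in wild-type cells (points, spread sideways at random), with list medians as black bars; the box at the left gives the quartiles of all tested genes with whiskers at the 5th and 95th percentiles. The medians of the replication, mitosis, recombination and E2F lists lie between -0.65 and -0.57, and those of ribosome biogenesis and proteasome genes at 0.29 and 0.3.

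Promoters of the replication genes often carry letters recognised by E2F factors. In RefSeq promoters of the mouse build GRCm38.p6, from 250 bases before to 50 after the start, TTTCCCGC or TTTGGCGC was found on either strand in 14 of 42 replication genes with a promoter in the table (33.3%), against 3.39% of all 8991 tested genes with one and 1.63% of all 27025 promoters. The share was 6.09% among falls and 1.69% among rises. Among spindle and checkpoint genes it was 10.9%, while CCAAT was found in 76.1% of them, against 39.5% of tested genes. A match of letters is a description of the sequence and no evidence of binding. Within the 150 bases before the start, 6 replication genes held a match. Of these Cdc6, Gins3 and Mcm6 fell, while Mcm5, Orc3 and Pola1 were not called (log2 changes of -0.78, 0.26 and -0.3). The promoters of the 3 that fell are shown, as examples chosen with their changes known; each gives the 150 bases before the start, 5′ to 3′ on the strand of the gene, with matches in capitals (GCGGGAAA is TTTCCCGC read from the other strand).
Cdc6, chr11:98908001-98908150, plus strand: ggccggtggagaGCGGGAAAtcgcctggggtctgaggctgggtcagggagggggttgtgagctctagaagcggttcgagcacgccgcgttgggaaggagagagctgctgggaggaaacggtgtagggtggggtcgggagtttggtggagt
Gins3, chr8:95633409-95633558, plus strand: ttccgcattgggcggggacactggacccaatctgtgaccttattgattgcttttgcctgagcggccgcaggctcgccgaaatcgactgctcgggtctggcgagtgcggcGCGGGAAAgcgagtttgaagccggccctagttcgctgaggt
Mcm6, chr1:128359706-128359855, minus strand: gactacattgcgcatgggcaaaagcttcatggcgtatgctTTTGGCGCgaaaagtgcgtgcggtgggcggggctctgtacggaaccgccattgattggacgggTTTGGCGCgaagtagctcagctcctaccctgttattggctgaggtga
The match begins 138 bases before the start in Cdc6 and 41 bases before it in Gins3, while Mcm6 holds a pair of matches, 110 and 47 bases before its start.

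Transcription factor families split into members that rose and members that fell. Of 15 Kruppel-like and Sp factors 2 rose (13.3%) and 6 fell (40%), against 9.75% and 8.45% of all tested genes. Klf4, a factor of monocyte differentiation, had 1.05 and 2.9 CPM after LPS, against 10.9 and 13.5 CPM untreated (log2 change -2.61, adjusted p 0.018). Klf9 fell by 1 on the log2 scale, and Klf7 rose, with 121 and 138 CPM after LPS against 24 and 27.9 CPM untreated. Without untreated library 2 the falls numbered 1, and the family's median of 0.06 turned to -0.05 with upper-quartile scaling. Of 39 basic leucine zipper factors 12 rose and 5 fell (30.8% and 12.8%). Atf3, a stress-induced repressor, had 537 and 809 CPM after LPS, against 44.9 and 58.8 CPM untreated. Cebpd, a factor that amplifies TLR4 responses, had 108 and 69.3 CPM after LPS, against 10.2 and 9.62 CPM untreated. Bach1, the haem-regulated repressor, and Atf6, a sensor of the endoplasmic reticulum, fell by 0.81 and 0.75 on the log2 scale.

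In the MYC network the activator Myc rose, several repressors of the network fell and another rose. Myc had 89.9 and 65.7 CPM after LPS, against 2.98 and 3.88 CPM untreated (log2 change 4.5, SE 0.247, adjusted p 0.0011). Mnt, which competes with MYC for their partner MAX, had 18.2 and 10 CPM after LPS, against 51 and 50.1 CPM untreated. Mxd4 and Mxd3, repressors of the same network, fell by 2.01 and 2.55 on the log2 scale, and Mxi1, another such repressor, by 0.57. Mxd1, a MAX partner and MYC antagonist like them, rose, with 14.2 and 39.4 CPM after LPS against 5.06 and 6.4 CPM untreated (adjusted p 0.033). In all, 2 of 11 members rose (18.2%) and 4 fell (36.4%), against 9.75% and 8.45% of all tested genes, with a median of -0.13. Over 12 libraries 1 member, Myc, rose (adjusted p 0.038) and 0 fell.

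ETS factors and clock genes were also divided. Of 16 ETS factors 4 rose and 5 fell (25% and 31.2%, against 9.75% and 8.45% of all tested genes), with a median of -0.22. Erf, a repressor of the family, had 12.1 and 11.5 CPM after LPS, against 33.3 and 35.3 CPM untreated (adjusted p 0.0034). Fli1 and Etv5 fell by 1.09 and 1.39 on the log2 scale. Etv3, another repressor, had 253 and 328 CPM after LPS, against 100 and 96.5 CPM untreated. Spi1, the PU.1 factor of myeloid identity, had 526 and 557 CPM after LPS, against 227 and 294 CPM untreated. Among 15 clock genes 5 fell (33.3%) and 2 rose (13.3%), with a median of -0.06. Dbp and Tef, output factors of the clock, fell by 1.98 and 1.4, and Bhlhe41, a clock repressor, by 1.39 on the log2 scale. Arntl, the core activator BMAL1, had 47.7 and 49.2 CPM after LPS, against 19.7 and 23.7 CPM untreated (adjusted p 0.0075). The largest zinc finger family, 299 tested Zfp-numbered genes, stayed below the background, with 7 rises (2.34%) and 17 falls (5.69%).

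Single chromatin regulators changed in both directions. Of 14 DNA methylation genes 2 rose and 3 fell. Tet2, which oxidises methylcytosine, had 128 and 114 CPM after LPS, against 24.9 and 25.4 CPM untreated (log2 change 2.26, SE 0.136, adjusted p 0.0012). Uhrf1, which brings the maintenance methyltransferase to new DNA, had 101 and 75.5 CPM after LPS, against 295 and 247 CPM untreated (adjusted p 0.0062). That methyltransferase, Dnmt1, had 168 and 149 CPM after LPS, against 338 and 303 CPM untreated. Mbd4, a glycosylase for mismatches at methylated sites, fell by 1.93 on the log2 scale. Kdm6b, a demethylase of histone H3 at lysine 27, had 111 and 69.3 CPM after LPS, against 15.9 and 17.5 CPM untreated (log2 change 2.44). Jarid2, an accessory subunit of Polycomb complex 2, had 113 and 96.7 CPM after LPS, against 39.2 and 37.3 CPM untreated. Cbx6, a reader subunit of Polycomb complex 1, had 26.2 and 27 CPM after LPS, against 73.5 and 74.8 CPM untreated. Setdb2, a lysine methyltransferase, rose by 1.98, and Hdac5, a signal-responsive deacetylase, fell by 1.52 on the log2 scale. Of 38 lysine methyltransferases 1 rose (2.63%) and 6 fell (15.8%), and of 33 Polycomb subunits 4 rose and 4 fell (12.1% each). Of 16 deacetylases and sirtuins 0 rose and 1 fell (6.25%). Over all tested genes the shares were 9.75% and 8.45%.

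Single genes of TGF-beta signalling changed in both directions. Tgfbr2, the type II receptor, had 103 and 109 CPM after LPS, against 302 and 247 CPM untreated (log2 change -1.38, adjusted p 0.005). Smad3, its signal carrier, had 6.39 and 6.05 CPM after LPS, against 15.1 and 14.1 CPM untreated. Tgfb1, the ligand, had 509 and 414 CPM after LPS, against 167 and 190 CPM untreated (log2 change 1.37, SE 0.172). Over 28 members 2 rose (7.14%) and 4 fell (14.3%), against 9.75% and 8.45% of all tested genes. The median log2 change was -0.05, with 13 members above 0 and 15 below. Over 12 libraries 1 rise and 0 falls were called, and over 11 libraries 1 rise and 3 falls. In the Notch pathway 6 of 18 members rose (33.3%) and 1 fell (5.56%), with a median of -0.14. Notch1 had 15 and 14.3 CPM after LPS, against 3.16 and 3.05 CPM untreated (adjusted p 0.0028). Dll1, a Notch ligand, had 1.05 and 3.64 CPM after LPS and 0 counts untreated, at least 36.4-fold higher if the untreated group is given 3 counts. Numb, an inhibitor of Notch, fell by 0.99 on the log2 scale. Notch rises numbered 2 without untreated library 1 and 0 over 12 libraries.

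Receptors for lipids, nucleotides and adenosine were among the families with the most rises. Of 25 tested, 9 rose (36%) and 5 fell (20%), against 9.75% and 8.45% of all tested genes. Over 12 libraries 2 rises and 2 falls were called, and over 11 libraries 7 rises and 4 falls. Hcar2, the receptor for niacin and ketone bodies, had 95.5 and 87.5 CPM after LPS, against 5.49 and 4.19 CPM untreated (log2 change 4.24, SE 0.191, adjusted p 0.00066). Gpr84, a receptor for medium-chain fatty acids, had 864 and 567 CPM after LPS, against 57.3 and 61.8 CPM untreated. Adora2b, an adenosine receptor, had 55 and 47.9 CPM after LPS, against 3.42 and 5.83 CPM untreated. Lpar5, a lysophosphatidic acid receptor, went the other way, with 2.2 and 2.41 CPM after LPS against 10.8 and 13 CPM untreated. Of 12 chemoattractant receptors 5 rose (41.7%) and 1, Cxcr4, fell (8.33%), with 0 rises and 0 falls over 12 libraries and 4 rises and 1 fall over 11. Fpr1, the formyl peptide receptor, had 3.83 and 1.28 CPM after LPS and 0 counts untreated, at least 38.4-fold higher. C5ar1, the complement C5a receptor, had 441 and 449 CPM after LPS, against 136 and 139 CPM untreated (adjusted p 0.0023), and C3ar1 rose by 1.26 on the log2 scale.

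Among other surface molecules, C-type lectins were among the rises and semaphorin receptors among the falls. Clec4e, the receptor Mincle for mycobacterial glycolipid, had 1520 and 2070 CPM after LPS, against 119 and 151 CPM untreated (log2 change 3.73, adjusted p 0.0014). Clec2d, an inhibitory ligand of NK receptors, had 17 and 35.6 CPM after LPS, against 0.865 and 1.41 CPM untreated. Lilrb4a rose by 2.05 on the log2 scale. Over 36 Fc, SIRP, SIGLEC, CD300 and paired receptors 9 rose (25%) and 1 fell (2.78%), against 9.75% and 8.45% of all tested genes. Itga5, the fibronectin receptor subunit, had 989 and 867 CPM after LPS, against 163 and 176 CPM untreated (log2 change 2.45). Nrp1, a receptor for semaphorins and VEGF, had 14.8 and 12 CPM after LPS, against 37.1 and 33.5 CPM untreated. Plxnd1 and Sema4g fell by 1.09 and 1.79 on the log2 scale, while Nrp2 rose by 0.81. Of 15 members of the semaphorin list 5 fell (33.3%), 2 over 11 libraries and 0 over 12.

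Some dual-specificity phosphatases, which switch off MAP kinases, and some kinases of the PIM, SGK, SIK, PLK and TRIB families rose. Of 18 dual-specificity phosphatases 5 rose (27.8%) and 0 fell, against 9.75% and 8.45% of all tested genes. In 9 of the 18 the log2 change was below 0, and the median was 0.15. Of the 14 kinases 5 rose (35.7%) and 2 fell (14.3%), with 2 rises and 0 falls over 12 libraries and 2 rises and 2 falls over 11. Dusp5, an ERK phosphatase, had 92.8 and 121 CPM after LPS, against 4.71 and 6.53 CPM untreated (log2 change 4.25, SE 0.242, adjusted p 0.0011). Dusp16, a phosphatase of JNK, had 118 and 95.7 CPM after LPS, against 28.2 and 24.9 CPM untreated. Dusp1, Dusp2 and Dusp4 rose by 2.97, 3.28 and 1.06 on the log2 scale. Pim1, a survival kinase, had 309 and 369 CPM after LPS, against 18.1 and 19.1 CPM untreated (adjusted p 6e-04, also called over 12 libraries). Sik3 had 155 and 180 CPM after LPS, against 57.2 and 61.7 CPM untreated, while its relative Sik2 fell by 0.94 on the log2 scale. Both are salt-inducible kinases that restrain CREB coactivators. Pde4b, a phosphodiesterase that degrades cyclic AMP, had 220 and 226 CPM after LPS, against 15.4 and 26.5 CPM untreated (adjusted p 0.0024).

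Subunits of phosphoinositide 3-kinase changed in opposite directions. Pik3r5, a regulatory subunit of the form driven by G protein-coupled receptors, had 516 and 515 CPM after LPS, against 130 and 187 CPM untreated (log2 change 1.7, adjusted p 0.0065). Pik3r1 and Pik3r2, regulatory subunits of the form driven by tyrosine kinases, fell by 0.78 and 1.06 on the log2 scale. Inpp5d, the phosphatase SHIP1 that opposes the pathway, had 82.3 and 69.1 CPM after LPS, against 225 and 175 CPM untreated. The list held 4 rises and 4 falls among 28 genes (14.3% each, against 9.75% and 8.45% of all tested genes). Dgkz, a diacylglycerol kinase, fell by 1.21 and Dgkh rose by 1.63 on the log2 scale.

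Small GTPases that shape the actin cytoskeleton, and their regulators, changed in both directions. Rnd1, an atypical member that loosens adhesion, had 26.8 and 88.3 CPM after LPS, against 3.72 and 4.33 CPM untreated (log2 change 3.84, adjusted p 0.012). Rhoc had 365 and 485 CPM after LPS, against 134 and 158 CPM untreated, and Rhod fell by 2.65 on the log2 scale. Arhgef3, an exchange factor, had 92.2 and 109 CPM after LPS, against 5.27 and 7.94 CPM untreated (log2 change 3.93). Arhgap45, a GTPase-activating protein, had 45.8 and 54 CPM after LPS, against 169 and 141 CPM untreated.

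Most of the called members of the BCL2 family rose. Of 20 BCL2 family members 8 rose (40%) and 2 fell (10%), against 9.75% and 8.45% of all tested genes. The median log2 change was 0.05, with 9 of the 20 below 0. Over 12 libraries 0 rises and 1 fall were called. Bcl2l1, the survival protein BCL-XL, had 327 and 324 CPM after LPS, against 110 and 78.7 CPM untreated (log2 change 1.78, adjusted p 0.0046). Bcl2a1b and Bcl2a1d, copies of the survival gene A1, rose by 2.88 and 3.07 on the log2 scale, and since A1 copies are near-identical, reads may have been split among them by the counting. Each copy counts as a separate member of the list. Bmf, a pro-death member, had 1.47 and 1.57 CPM after LPS, against 9.38 and 8.65 CPM untreated. Bcl2 itself fell by 0.96 on the log2 scale (adjusted p 0.034), and the list held the pro-death Bcl2l11 among the rises, at 1.31. In the TNF superfamily 9 of 25 members rose (36%) and 1, Tnfrsf26, fell (4%), with 2 rises and 0 falls over 12 libraries. Fas, the death receptor, had 107 and 122 CPM after LPS, against 4.02 and 5.3 CPM untreated (log2 change 4.62, SE 0.2, adjusted p 6e-04). Tnfrsf1b, the second TNF receptor, had 1040 and 1130 CPM after LPS, against 68.3 and 88.1 CPM untreated. Tnfsf9, the ligand of 4-1BB, had 353 and 331 CPM after LPS, against 76.2 and 74.1 CPM untreated.

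Genes of ubiquitin ligases changed in both directions. Of 37 TRIM genes 10 rose (27%) and 4 fell (10.8%), with 1 rise and 0 falls over 12 libraries and 11 rises and 3 falls over 11. Trim21, a cytosolic antibody receptor, had 60.7 and 102 CPM after LPS, against 10.1 and 9.14 CPM untreated (log2 change 3.08, adjusted p 0.0029). Trim34b had 11 and 21.1 CPM after LPS, against 0.908 and 0.75 CPM untreated, a value that may share reads with its neighbouring copy. Trim65 had 2.83 and 2.71 CPM after LPS, against 13.4 and 13.7 CPM untreated. Of 60 RNF genes 6 rose (10%) and 8 fell (13.3%), against 9.75% and 8.45% of all tested genes. Rnf19b had 245 and 319 CPM after LPS, against 55.9 and 60.2 CPM untreated. Of 48 F-box genes 4 rose (8.33%) and 8 fell (16.7%). Fbxo31, which targets cyclin D1, had 4.93 and 4.63 CPM after LPS, against 18 and 20.4 CPM untreated. Of 44 USP deubiquitinases 3 rose (6.82%) and 1 fell (2.27%), below the shares of all tested genes.

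Single solute carriers changed in both directions. Of 190 tested, 27 rose (14.2%) and 21 fell (11.1%), against 9.75% and 8.45% of all tested genes. Slc15a3, a lysosomal peptide transporter, had 315 and 283 CPM after LPS, against 32.5 and 44 CPM untreated (log2 change 2.97, SE 0.199, adjusted p 0.0014). Slc25a37, the mitochondrial iron importer, had 160 and 144 CPM after LPS, against 47.2 and 50 CPM untreated. Slc12a4, a potassium chloride cotransporter, rose by 1.66 on the log2 scale. Slc19a2, a thiamine transporter, had 23.8 and 22 CPM after LPS, against 61.4 and 64.7 CPM untreated (adjusted p 0.0029). Slc25a45 and Slc45a4 fell by 1.85 and 1.35 on the log2 scale. Without untreated library 1 or 2 the family held 16 and 14 rises and 10 and 11 falls.

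Genes of protein production mostly had small positive changes, few of which passed the test. Of 60 ribosome biogenesis factors 6 rose (10%, against 9.75% of all tested genes) and 0 fell, and 55 of 60 had a log2 change above 0 with a median of 0.29. Nol10, a nucleolar factor, had 183 and 178 CPM after LPS, against 90.9 and 74.5 CPM untreated (log2 change 1.12, adjusted p 0.008). With upper-quartile scaling 48 of 60 were above 0 and the median was 0.19. Of 48 proteasome subunits 2 rose and 0 fell, with 44 above 0 and a median of 0.3, or 35 and 0.2 with upper-quartile scaling. Psma6 had 582 and 589 CPM after LPS, against 274 and 276 CPM untreated. Of 35 heat shock genes tested, 1 rose and 3 fell, or 0 and 4 with upper-quartile scaling. Hspa5, the chaperone BiP of the endoplasmic reticulum, was the member that rose, with 5250 and 6470 CPM after LPS against 3320 and 3310 CPM untreated (adjusted p 0.039). Mat2a, which makes S-adenosylmethionine, rose by 0.96, and Dhodh, an enzyme of pyrimidine synthesis, fell by 0.81 on the log2 scale.

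**Figure D4:**
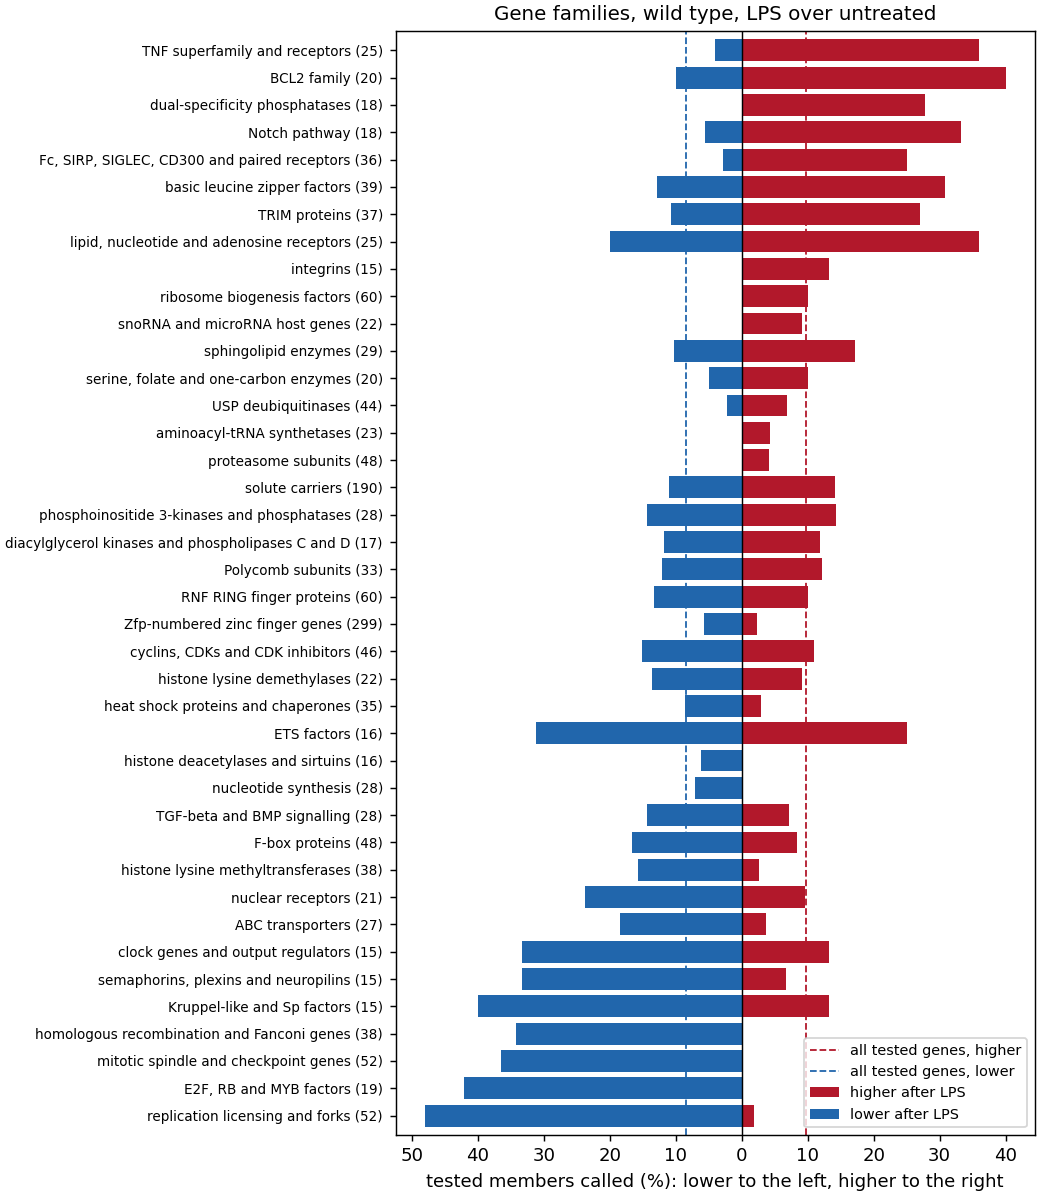
Share of tested members called (%, edgeR adjusted p under 0.05) in wild-type cells for families with at least 15 tested members (number in brackets), higher after LPS to the right in red and lower to the left in blue; dashed lines mark all tested genes at 9.75% and 8.45%. Replication genes reach 48.1% to the left and the BCL2 family 40% to the right.

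With cytokines, chemokines and antiviral genes left out by the start of their symbols, the largest rises came from genes with almost no reads untreated. Of the 12 largest 8 had 0 counts in both untreated libraries. These 8 include the chemokine Cx3cl1, whose symbol the omission did not cover, with 7.34 and 9.4 CPM after LPS and 0 counts untreated. F3, tissue factor, which starts blood coagulation, had 3.62 and 5.41 CPM after LPS and 0 counts untreated, at least 69.3-fold higher. Col5a3, a collagen chain, had 5.45 and 4.43 CPM after LPS and was at least 75.2-fold higher. Tpbg, a membrane glycoprotein, had 3.35 and 2.81 CPM after LPS and was at least 46.9-fold higher. Flrt3, an adhesion protein, was uneven, with 16.1 and 2.41 CPM after LPS against 0 counts untreated (adjusted p 0.029). Edn1, endothelin 1, a peptide that constricts vessels, had 29.7 and 16.4 CPM after LPS, against 0.0865 and 0.0441 CPM untreated, a raw count ratio of 349 with an exact 95% interval of 119 to 1690. Cd69, an early activation marker, had 26.8 and 19.9 CPM after LPS, against 0.0432 and 0.177 CPM untreated (log2 change 7.67, SE 0.452). Mir155hg, the host transcript of miR-155, had 12.8 and 8.22 CPM after LPS, against 0.13 and 0.0441 CPM untreated (adjusted p 0.002, also called over 12 libraries).

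The largest gains in CPM included metabolic enzymes, actin and a matrix protein. Acod1, which makes itaconate, had 4850 and 7370 CPM after LPS, against 18.3 and 75.7 CPM untreated (log2 change 7.02, SE 0.815, adjusted p 0.0053). Odc1, the first enzyme of polyamine synthesis, had 4090 and 3640 CPM after LPS, against 473 and 473 CPM untreated (log2 change 3.03, also called over 12 libraries). Marcksl1, an actin-binding protein, had 2040 and 2830 CPM after LPS, against 104 and 128 CPM untreated. Spp1, the secreted matrix protein osteopontin, had 15000 and 14700 CPM after LPS, against 8160 and 6300 CPM untreated (adjusted p 0.027). Actb, the cytoplasmic actin, had 7450 and 8430 CPM after LPS, against 3920 and 3330 CPM untreated. Actb is often used to scale other measurements, and here its log2 change was 1.13 (SE 0.196, adjusted p 0.016).

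Several rises sat side by side in the genome. The longest run of neighbouring tested genes that all rose held 14 genes on chr1:173350879-174031810 (GRCm38), from Aim2, a sensor of cytosolic DNA, through the Ifi200 family to Ifi205. Their log2 changes ran from 1.15 in Aim2 to 8.27 in Ifi208. Ifi207 had 538 and 750 CPM after LPS, against 96.5 and 102 CPM untreated. Ifi204 had 183 and 438 CPM after LPS, against 19.9 and 22.9 CPM untreated. In all 14 genes the second LPS library was above the first, by a median of 2.67-fold, whereas over all 1177 rises this held for 719 (61.1%) with a median of 1.09-fold. Several of these genes are near-identical copies or overlap, so reads may have been divided among them.

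Some of the other runs also held members of 1 family, and some did not. A run of 9 genes on chr1:85083069-85778643 held Sp110, Sp140 and Sp100, nuclear body proteins, with log2 changes of 0.83 to 4.44 over the run. Sp140 had 83 and 197 CPM after LPS, against 14.3 and 14.7 CPM untreated. On chromosome 14 a run of 4 held Phf11b, Phf11d, Phf11c and the methyltransferase gene Setdb2, with log2 changes of 1.89 to 2.82. On chromosome 11 the Schlafen genes, growth regulators of lymphoid and myeloid cells, formed 2 runs of 4, the first with the neighbour Nle1. Slfn2 had 1240 and 1440 CPM after LPS, against 137 and 146 CPM untreated, while Slfn3 did not pass the test, with 14.2 and 14 CPM after LPS against 21.6 and 13.4 CPM untreated. A run of 8 on chr17:17374309-17893952 held mostly genes of different families and ended in Has1, a hyaluronan synthase, Fpr1 and Fpr2. In the Sp run and the Phf11 run every gene was again higher in the second LPS library. Of 24 runs of at least 4 genes 3 consisted of falls, and all 3 lie on chromosome 5, among them Mcm7, Ap4m1, Taf6 and Cnpy4, genes of different families, on chr5:138164583-138193918.

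Promoters of the strong rises often held letters of the interferon response element. GAAA followed by any 2 bases and GAAA was found on either strand in 42 of 192 rises of at least 8-fold with a promoter in the table (21.9%), in 9.23% of all rises, in 2.48% of falls and in 3.38% of all tested genes with a promoter; all 27025 promoters gave 3.49%. Many of the 42 are neighbouring members of the same family, such as Gbp, Ifit and Ifi200 genes, so their promoters may not be separate observations. The kB letters GGGA, any base and TTTCC were found in 3.12% of the rises of at least 8-fold, against 0.423% of all tested genes with a promoter. The promoters of Ifi208, Ifi211 and Ifi214, from the run of 14, are printed as examples chosen because they hold a match. Among members of the run that rose at least 8-fold, Ifi205 was the only other with a match found. The bases just before the match are alike in Ifi208 and Ifi214 and differ in Ifi211. Each print gives the 150 bases before the start on the strand of the gene, 5′ to 3′, from RefSeq on GRCm38.p6, with the match in capitals.
Ifi208, chr1:173673515-173673664, plus strand: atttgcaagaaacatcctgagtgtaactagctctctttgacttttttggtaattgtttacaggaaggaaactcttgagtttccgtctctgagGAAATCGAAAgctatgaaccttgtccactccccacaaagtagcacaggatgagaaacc
Ifi211, chr1:173913047-173913196, minus strand: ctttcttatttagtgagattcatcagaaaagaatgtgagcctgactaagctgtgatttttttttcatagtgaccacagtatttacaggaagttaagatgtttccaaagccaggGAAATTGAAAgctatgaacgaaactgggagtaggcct
Ifi214, chr1:173535958-173536107, minus strand: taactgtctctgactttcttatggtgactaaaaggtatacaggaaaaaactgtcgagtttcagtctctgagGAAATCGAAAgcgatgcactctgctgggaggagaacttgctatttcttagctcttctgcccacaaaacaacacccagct
The match begins 58, 37 and 79 bases before the start in Ifi208, Ifi211 and Ifi214. Ifi208 had 0.786 and 2.81 CPM after LPS, against 0 counts untreated. Ifi211 had 28 and 68.8 CPM after LPS, against 3.63 and 4.99 CPM untreated (adjusted p 0.0083). Ifi214 had 1.05 and 4.63 CPM after LPS, against 0.0432 and 0.0883 CPM untreated (adjusted p 0.022).

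Protein-coding genes made up most of both directions, and noncoding classes rarely fell. Of 10762 protein-coding genes tested 9.94% rose and 9.27% fell. Of 598 long noncoding RNAs 57 rose (9.53%) and 15 fell (2.51%). Of 582 pseudogenes 38 rose (6.53%) and 3 fell (0.515%), and reads of a pseudogene may come from its parent gene. Falling protein-coding genes had a median span of 29.4 kb, rising ones 26.2 kb, and all tested ones 23.5 kb.

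The response was set against the knockouts in libraries that it does not share. In the Ing4 knockout, given LPS or left untreated in the same way, 1820 of 12000 genes were called (15.2%), 997 higher (8.31%) and 823 lower (6.86%). All 1147 wild-type rises tested there had a positive change, and 814 were called, which is 69.2% of the wild-type rises and 81.6% of the knockout's own. Of 1010 wild-type falls tested there 1006 had a negative change and 628 were called, 61.6% of the wild-type falls and 76.3% of the knockout's own. The 4 exceptions, named after their values were seen, were Bcl6, Cass4, Egr3 and Dyrk3, with changes of 0.47, 0.46, 0.26 and 0.08 there, and none of the 4 was called in that direction. The median fall was -1.1 in the knockout and -1.04 in wild type over these 1010 genes, and 994 (98.4%) differed by at most 1 on the log2 scale. The median rise was 1.58 in the knockout and 1.45 in wild type over the 1147 genes, of which a smaller share, 1012 (88.2%), differed by at most 1. In an edgeR test of the difference of the responses, wild type minus Ing4 knockout, over 8 libraries, 0 of 12529 genes (0%) were called and 136 (1.09%) had an unadjusted p under 0.05, with no other tool run.

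**Figure D5:**
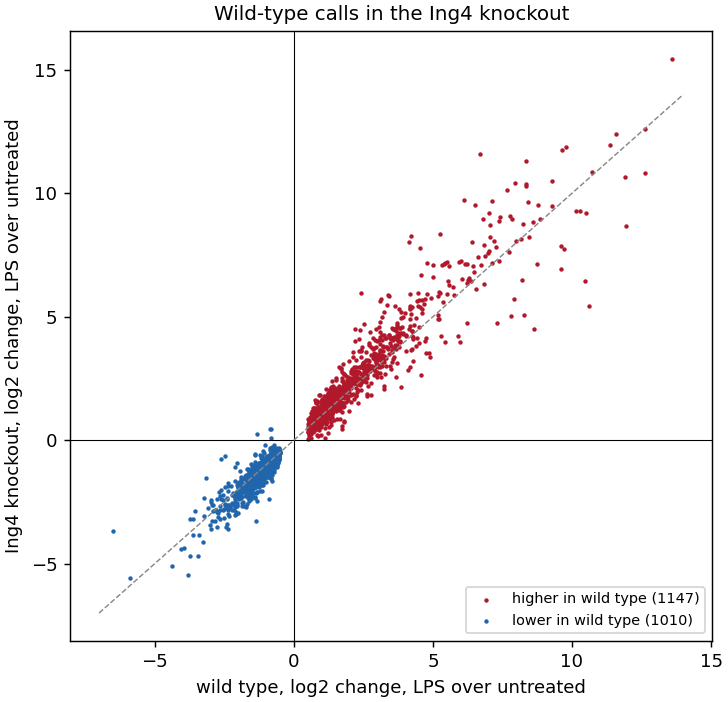
Log2 change, LPS over untreated, of genes called in wild type (x axis) and in the Ing4 knockout (y axis), each from its own 4 libraries; each point is a gene, the dashed line marks equal changes. All 1147 rises and 1006 of the 1010 falls lie on the same side of 0 in both.

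The Socs1 knockout gave fewer calls. Log2 CPM of its 2 LPS libraries correlated at 0.9193 across the same genes, the lowest value among the 6 groups. Its own 4 libraries called 0 of 11936 genes (0%), and 1063 of 1068 wild-type rises and 998 of 1011 falls had the same sign there. Fam13c changed by -1.21 in the Socs1 knockout, against -4.07 in wild type, and Klhl6 by -1.39, against -3.95. These smaller falls depended on the LPS library that stands apart. Without it the difference, wild type minus Socs1 knockout, turned from -2.87 to 0.5 for Fam13c and from -2.57 to 1.91 for Klhl6. The edgeR test of the difference, wild type minus Socs1 knockout, called 0 of 12533 genes (0%) over 8 libraries and 0 of 12983 (0%) over 7 without the LPS library that stands apart, and 100 (0.798%) had an unadjusted p under 0.05 over 8. A missed threshold in these small groups does not show that the responses are alike.

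The authors' deposited table for this comparison lists 867 genes, all protein coding, with a shrunken log2 change of at least 1 in size. In it 518 are higher and 349 lower after LPS, with log2 changes between -2.78 and 6.99. Of the 865 tested here 845 were called in the same direction, 508 higher and 337 lower, and 0 were called in the opposite one.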

How the data were processed

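Poly(A) RNA was sequenced from stranded libraries in single 75-base reads, per the labels' protocols. The count values deposited by the authors are whole reads per Ensembl gene, without scaling, per the file headers. FastQC, HISAT, StringTie, HTSeq and DESeq2 are named in the submitters' processing notes without versions. The build named there is the human GRCh38. As the gene identifiers are those of mouse, symbols and positions came from GENCODE M21 on GRCm38. The authors' deposited table of changed genes gives a shrunken log2 change, normalised group mean counts and an adjusted p-value.

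Counts of the 4 wild-type libraries were filtered with filterByExpr, scaled by TMM and tested in R 4.3.3 with edgeR 4.0.16, robust quasi-likelihood, with Benjamini-Hochberg adjustment across 12070 genes and a threshold of 0.05. This fit has 2 residual degrees of freedom beside the spread shared over genes (biological coefficient of variation 0.185). Standard errors were taken as the size of the log2 change divided by the square root of F. Against a group with 0 counts a bound is given from 3 counts over the group, and with 1 to 3 counts the ratio of raw counts and its exact 95% interval; these cover counting error only. The sources used here do not say whether counting used strand, so overlapping and antisense genes are uncertain. In simulated data with 200 changed genes the test recovered 69.4% of 2-fold rises, 44.7% of 2-fold falls, 98% of 4-fold rises and 93.8% of 4-fold falls, with 2 false calls among 11915 genes. Each simulated gene took the spread typical of its level, without a spread of its own, and fewer genes changed than the 2197 called in the real libraries. The rates therefore hold for that simpler setting only.

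The members, the 50 family lists, the choice of a fit on 4 libraries and the rule for named genes were set with earlier results of these data known. The rule names, among called genes with groups that do not overlap and a symbol other than a predicted, clone or pseudogene name, the 20 largest falls (at least 2 CPM untreated), the 8 largest CPM losses, and, outside cytokines, chemokines and interferon-stimulated antiviral genes as told by the start of the symbol, the 12 largest rises and 6 largest CPM gains. From each list it names up to 3 rises and 3 falls with the smallest p, or all calls where there are at most 5. This gave 246 genes; a selection is described, and some results are not reported here. Other genes, such as members of neighbouring runs, Gmnn, Mcm2 to Mcm7 and Bcl2l11, were named after their values were seen. Motifs were searched on both strands of RefSeq promoters, found for 8991 of 12069 tested symbols.

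Alternatives were DESeq2 1.42.0, limma-voom (limma 3.58.1), relative log expression and upper-quartile scaling, no filter, a minimum mean of 5 CPM, fits on 12 and 11 libraries, each library left out, the replicate number as a block, glmTreat at a fold of 1.5 and an adjusted p of 0.01. Where a library was left out, the lone library of its group was assumed to vary like the other group.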

Additional observations from a re-analysis of the deposited data

How the results depend on the processing

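DESeq2, limma-voom, relative log expression, upper-quartile scaling, no filter and a mean of at least 5 CPM gave between 1979 and 2628 wild-type calls, within 1.5 times of 2197. The fit over 12 libraries gave 369 calls, 241 higher and 128 lower. A test against a fold of 1.5 gave 964 (637 and 327), and an adjusted p of 0.01 gave 735 (467 and 268). Leaving out a library gave 1027 to 2100 calls, 586 to 1229 higher and 426 to 871 lower. The replicate numbers are in the labels of both groups without any word on what they share. Replicate differences correlated at 0.503 between LPS and untreated, which 2 pairs cannot turn into a pairing, and with the number as a block there were 4723 calls, 2358 higher and 2365 lower. No called gene changed sign under any of these alternatives, all of which draw on the same wild-type libraries. Among the 246 named genes 61 remained called over 12 libraries, 209 over 11, 168 and 174 without untreated library 1 or 2, and 245 with DESeq2. The Ing4 knockout's own response gave 1024 calls in the 12-library fit, 5296 with the replicate block, and 1464 to 2006 with a library left out. The difference from the Ing4 knockout gave 1 call with the replicate block, Saa3 (log2 difference -3.99, adjusted p 0.042). The difference from the Socs1 knockout gave 0 to 15 calls with a library left out, 15 only without its second LPS library, where the lone LPS library is the one that stands apart; Fam13c (-3.79) and Tet2 (2.04) are among them. The causes of these shifts were not tested. At 20216586 counts or more per library, depth limited genes under about 0.148 CPM. With 2 libraries a group, 44.7% of 2-fold falls were recovered in the simulated data, and recovery in the real libraries was not measured.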

Other observations

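Large falls outside the choice of genes for the text include C130050O18Rik, left out for its clone name, Lrrc17, left out for its low level, and St6gal1 and Kbtbd11, whose falls were just smaller than the 20 largest. C130050O18Rik had 1.99 and 1.77 CPM after LPS, against 32.8 and 45.1 CPM untreated (log2 change -4.37, adjusted p 0.0011). Lrrc17, at 0 counts in both LPS libraries, had 0.562 and 0.485 CPM untreated and was called at an adjusted p of 0.023. St6gal1, the sialyltransferase that caps N-glycans, had 6.03 and 6.64 CPM after LPS, against 46.3 and 47.7 CPM untreated (log2 change -2.89, SE 0.156). Kbtbd11 had 22.1 and 27.6 CPM after LPS, against 202 and 181 CPM untreated (adjusted p 0.0011).

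Cationic amino acid and cystine transport also changed within the solute carriers. Slc7a2, an arginine carrier, had 3.56 and 2.12 CPM after LPS, against 0.0432 and 0 CPM untreated. Slc7a11, the cystine and glutamate exchanger, had 307 and 151 CPM after LPS, against 39.6 and 32.5 CPM untreated (log2 change 2.67, adjusted p 0.0082). Slc40a1, the iron exporter ferroportin, fell, with 2.67 and 4.58 CPM after LPS against 9.99 and 11.8 CPM untreated (adjusted p 0.024). All of these genes were chosen after their values were seen.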
